A study of Mus musculus with 14 samples.

Results

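The early time step within the high-fat (HF) meal was examined: the duodenal mucosa of mice killed 1 h after the beginning of the meal (HF1h) against that of mice killed at 30 min (HF30min). The comparison uses 4 of the 14 Affymetrix MOE 430 v2.0 arrays of the series, the 2 arrays of each of these pools, and neither pool is the fasting one. All 45037 probe sets outside the 64 Affymetrix controls were members. The mice were C57BL6 males bought at 12 wk of age and acclimated for 2 wk on a low-fat (LF) diet, and they were fasted for 12 h in the dark phase before the meal. The HF meal held 60% of its calories as fat, 20% as carbohydrate and 20% as protein (5.24 kcal/g), and it was offered ad libitum until death, so the HF1h mice could eat for longer. The LF meal, used below for the same step from 30 min (LF30min) to 1 h (LF1h), held 10% of its calories as fat, 70% as carbohydrate and 20% as protein (3.85 kcal/g). The remaining pools were the fasted mice and those taken at 3 h (LF3h, HF3h). No gene was altered in any group. The mucosa of 20 mice was combined into each pool and its RNA was hybridized to 2 arrays as technical replicates, so all p-values cover array-to-array error and no biological replicate was measured. Different mice stood for each time, so mice and time cannot be told apart.

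The duodenum receives what the stomach releases and the juices of the pancreas. Its enterocytes take up fat, sugar, amino acids, iron and carotenoids, and Brunner glands below its first stretch secrete mucus and trefoil peptides. Pyloric stomach and pancreas lie against it, so that a scraping of mucosa can hold transcripts of both. In the fed state, insulin turns off genes that FOXO1 drives in fasting, such as those of gluconeogenesis.

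The labelled tissue was present in both pools. Markers of enterocytes were at the top of the scale, with log2 levels of 13.64 and 13.68 on the HF30min arrays and 13.58 and 13.63 on the HF1h arrays for Alpi, intestinal alkaline phosphatase. Their summed level over 21 genes was 142000 at HF30min and 138000 at HF1h in linear units. Defining genes of adipocytes (Adipoq, 3.41 and 3.07), mast cells (Mcpt1, 3.33 and 3.23) and red cells (Hba-a1, 3.07 and 3.11) lay near the background. Of 9 listed red cell genes 4 were measured, so these values do not show that blood was absent. A log2 level under 6 was read as partly background. Where 1 or both of the pools lay there, the change is given with the words at least, because background can hide a part of it. These words are not a lower limit, since array error can also make an estimate too large. Without each array in turn, the change of Golm2 was -1.46 to -0.73, that of F5 -1.37 to -0.67 and that of Igkv6-20 0.74 to 1.5. That of Gkn3 moved little, at -5.89 to -5.74. Paired arrays of 1 pool had correlations of 0.9958 to 0.9971 over the series, and the 3' minus 5' difference of beta-actin, a sign of RNA quality, was 0.525 at HF30min and 0.47 at HF1h.

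From 30 min to 1 h, 61 probe sets rose and 40 fell (0.135% and 0.0888% of those tested) at an adjusted p under 0.05 from limma's moderated test and at least a 2-fold change. Without the fold minimum 195 rose and 272 fell (0.433% and 0.604%). Counted once per gene, by the probe set with the highest mean, 35 of 18193 genes rose and 25 fell (0.192% and 0.137%). Pancreatic genes supplied 27 of the 35, and the other 8 were Klk1b5, Hspa1a, Hspa1b, Slc38a5, Gatm, Amy1, Nucb2 and Igkv6-20. Of the 25 that fell, 11 were genes of the stomach or Brunner gland and 3 of the islets, with Tff2 on a gastric and a pancreatic list. The 11 on none of these lists were 2310057J18Rik, Wfdc18, Sptssb, A2ml1, Fabp5, Pck1, Ehf, Golm2, Egr1, Fkbp9 and F5. Without the genes of the gastric, pancreatic and islet lists, a setting chosen after the data had been seen, 24 probe sets rose and 20 fell, some of them assigned to no single gene. The median change over all genes was 0.02 on the log2 scale. In these bulk pools, fewer cells of a type and less RNA per cell cannot be told apart.

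The HF30min pool stood apart from the other pools for many of these genes. Of the 35 genes that rose, 29 had their lowest level of all 7 pools at HF30min and 1 had its highest at HF1h. Of the 25 that fell, 22 had their highest level at HF30min and 3 their lowest at HF1h. All 35 that rose were higher at HF1h than in the fasting pool, and 9 of the 25 that fell were lower there than in it. These orders describe genes chosen by this same contrast and were not tested.

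**Figure D1:**
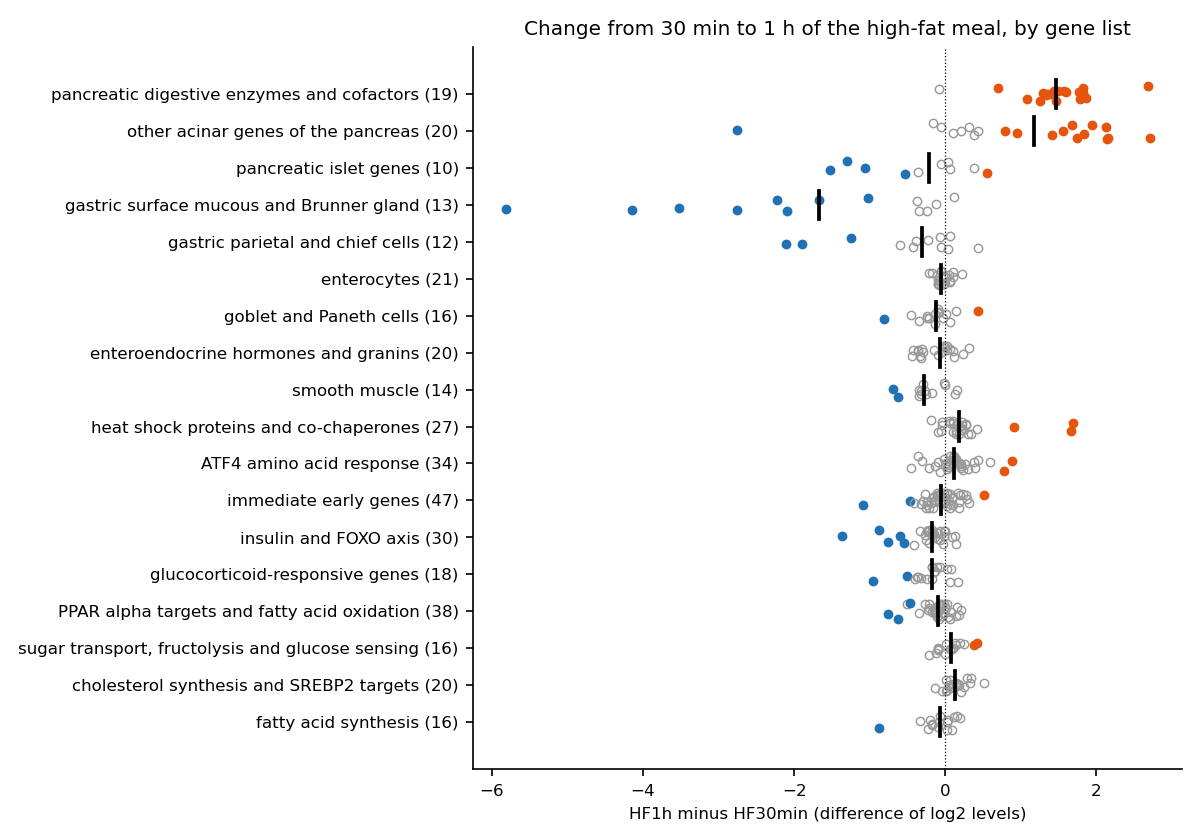
Change of each measured gene from HF30min to HF1h (horizontal axis, difference of log2 levels) in 18 gene lists, with the number of genes in brackets. Filled points passed an adjusted p of 0.05 (orange higher, blue lower at HF1h), open points did not, and the black bar is the list median, which was 1.47 for the pancreatic enzymes, -1.67 for the gastric surface and Brunner gland genes and -0.05 for the enterocyte genes.

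Transcripts of gastric surface mucous cells and of Brunner glands fell most. The promoters of the 3 gastrokines are shown because these neighbours, which lie within 43.3 kb of each other on chromosome 6, gave 3 of the 4 largest falls of all genes. Each window runs from 250 bases before to 50 after the gene start, from RefSeq on build GRCm38.p6, 5′ to 3′ on the strand of the gene, with GATAAG, letters that GATA factors bind, or its reverse complement in capitals.
Gkn1, chr6:87350866-87351165, - strand: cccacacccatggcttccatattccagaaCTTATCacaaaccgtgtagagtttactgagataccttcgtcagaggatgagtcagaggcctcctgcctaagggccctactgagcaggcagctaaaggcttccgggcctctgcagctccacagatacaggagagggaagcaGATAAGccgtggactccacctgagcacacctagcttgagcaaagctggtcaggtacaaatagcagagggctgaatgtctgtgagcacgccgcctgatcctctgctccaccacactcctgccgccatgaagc
Gkn2, chr6:87373115-87373414, + strand: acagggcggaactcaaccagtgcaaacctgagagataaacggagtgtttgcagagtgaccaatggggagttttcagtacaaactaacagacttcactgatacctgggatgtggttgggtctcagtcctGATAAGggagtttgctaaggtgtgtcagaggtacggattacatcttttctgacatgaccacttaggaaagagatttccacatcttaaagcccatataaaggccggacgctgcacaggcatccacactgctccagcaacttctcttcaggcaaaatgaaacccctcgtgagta
Gkn3, chr6:87388886-87389185, - strand: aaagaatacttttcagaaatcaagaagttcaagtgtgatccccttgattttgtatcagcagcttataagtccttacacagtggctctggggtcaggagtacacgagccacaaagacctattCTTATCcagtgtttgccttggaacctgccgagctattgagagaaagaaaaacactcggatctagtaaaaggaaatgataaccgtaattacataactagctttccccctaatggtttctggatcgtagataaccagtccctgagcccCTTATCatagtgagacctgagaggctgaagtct

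GATAAG on either strand was in 4 of the 9 promoters of the gastric surface and Brunner gland list that have an entry. It was in 7.44% of all 32851 promoters. The pancreatic enzyme list, whose genes rose, had it in 11 of 22 promoters, and the other acinar genes in 3 of 15. The motifs here and below were picked after the sequences had been looked at, and a match is a description of the letters only.

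Of 13 measured genes of gastric surface cells and Brunner glands, 8 fell and none rose (backgrounds over all genes at an adjusted p alone, 0.737% down and 0.572% up), with a list median of -1.67 against 0.02 for all genes. Gkn3, a gastrokine of the gastric mucosa, was at log2 levels of 11.61 and 11.6 on the HF30min arrays and at 5.71 and 5.86 on the HF1h arrays. The arrays of the 2 pools lay far apart, and HF1h was near the fasting mean of 5.04. This was a fall of at least 56.4-fold (log2 change -5.82, SE 0.17, adjusted p = 1.2e-10 from limma). At HF3h the level was back at 10.78 and 10.91.

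Gkn1, which encodes a secreted protein of gastric surface cells, was at 10.13 and 10.01 at HF30min and at 5.88 and 5.95 at HF1h, at least 17.8-fold lower (adjusted p = 5.8e-11). Gkn2, whose product pairs with the trefoil peptide TFF1, went from 11.21 and 11.19 to 7.69 and 7.68, an 11.4-fold fall (log2 change -3.52, SE 0.08, adjusted p = 3.3e-11). Both HF1h means, 5.92 and 7.69, lay close to those of the fasting pool, 6.13 and 7.52. The trefoil peptides protect mucosal surfaces. Tff2, made by gastric neck cells and Brunner glands, fell 6.79-fold from 12.13 and 12.24 to 9.4 and 9.45 (adjusted p = 2.3e-10). Tff1, of gastric surface cells, fell 4.68-fold from 11.23 and 11.17 to 8.98 on both HF1h arrays (adjusted p = 2.6e-09). Tff3, the trefoil peptide of intestinal goblet cells, had 13.17 and 13.04 and a change of -0.13 that did not pass the test (adjusted p = 0.43). Muc5ac, the gastric surface mucin, fell at least 3.18-fold and Psca, a surface antigen of gastric epithelium, at least 2.02-fold. Anxa10 fell by at least 2.1 on the log2 scale on one probe set, while its other probe set had -0.07.

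Summed over the 13 genes, the gastric surface and Brunner gland level was 14700 and 14800 on the HF30min arrays and 2290 and 2330 on the HF1h arrays, in linear units. The ratio of HF30min to HF1h was 6.39. No other pool reached HF30min. LF30min was at 11800 on both arrays, HF3h at 7640 and 7580, LF1h at 3340 and 3390, and the fasting and LF3h pools at 1740 to 1800. The sum was thus high at 30 min and lower at 1 h in both meals, and in the HF meal it was high again at 3 h. The part of gastric tissue in the results below was not tested.

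Parietal and chief cells of the gastric glands secrete acid and pepsinogen, and most of their listed transcripts were low in these pools. Of 12 measured, 3 fell and none rose, with a median of -0.31. Atp4a, the catalytic subunit of the gastric proton pump, was at 5.58 and 5.3 at HF30min and at 3.03 and 3.63 at HF1h (at least 4.31-fold lower, adjusted p = 1.1e-05). HF30min was the one pool of the 7 with an Atp4a level over 5, and the other arrays lay at 3.03 to 4.2. Chia1, a chitinase of chief cells in mice, fell at least 3.72-fold (adjusted p = 6.3e-06) and Pgc, which encodes progastricsin, at least 2.36-fold (adjusted p = 0.00012). Atp4b, the pump's other subunit, was at 7.17 and 6.57, a change of -0.6 that did not pass the test (adjusted p = 0.073). The summed level of the 12 genes was 1170 on both HF30min arrays and 948 and 881 at HF1h, a ratio of 1.28. A linear sum weighs the highest member most, here Gpr155, with means of 9.45 and 9.22 and 9.48 in the fasting pool. Its change of -0.23 did not pass limma's test (adjusted p = 0.22), so the sum says little about the other members.

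**Figure D2:**
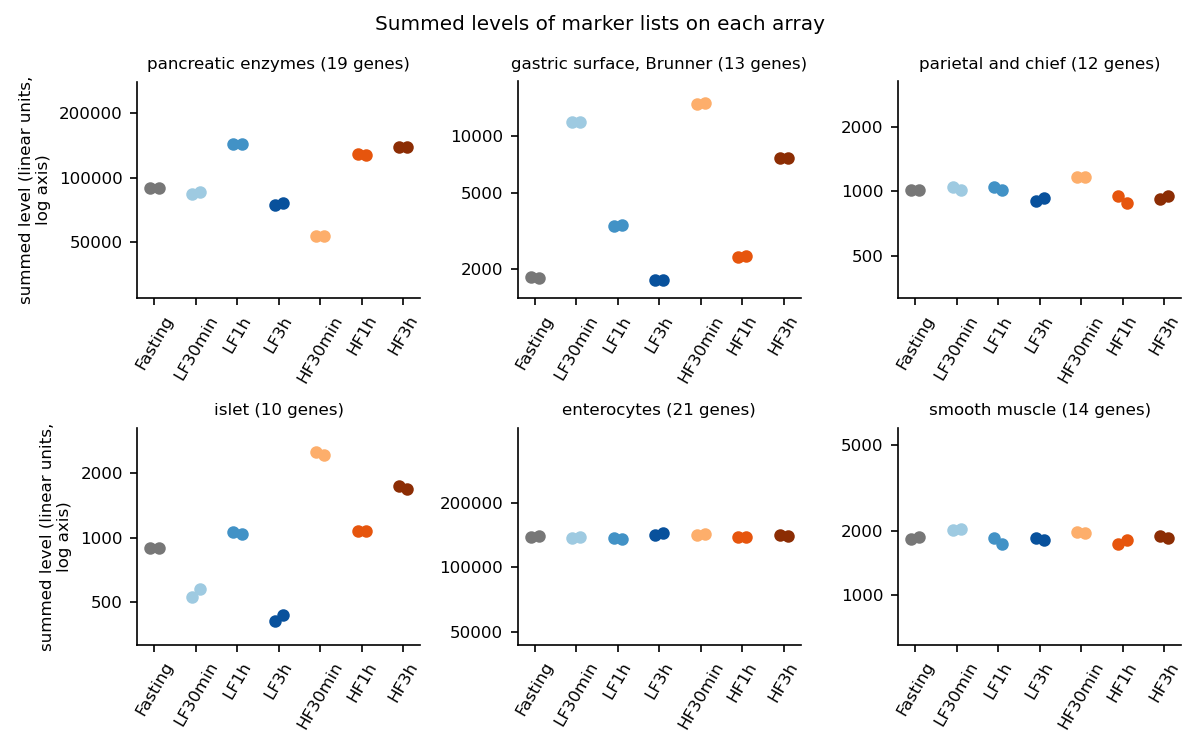
Summed level in linear units (vertical log axis, with its own range in each panel) of the measured genes of 6 marker lists on each of the 14 arrays, with 2 points per pool. The HF30min pool is lowest for pancreatic enzymes at 53200 to 53400 and highest for the gastric surface and islet lists, and the enterocyte sums of HF30min and HF1h are 142000 and 138000.

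Genes of the exocrine pancreas made up most of the rise. Acinar cells make and store the digestive enzymes, and the factor PTF1A, which binds E-boxes, keeps their genes active. The promoters of Cela2a, an elastase, and Prss2, a trypsinogen, are shown as 2 members with high levels. They are from RefSeq on build GRCm38.p6, and the E-box CACCTG, or its reverse complement CAGGTG, is in capitals.
Cela2a, chr4:141825956-141826255, - strand: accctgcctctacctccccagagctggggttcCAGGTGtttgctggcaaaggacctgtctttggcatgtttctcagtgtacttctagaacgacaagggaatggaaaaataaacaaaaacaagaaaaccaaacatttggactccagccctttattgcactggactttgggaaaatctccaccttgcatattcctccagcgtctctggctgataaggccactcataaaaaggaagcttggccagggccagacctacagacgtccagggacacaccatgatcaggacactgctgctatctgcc
Prss2, chr6:41521526-41521825, + strand: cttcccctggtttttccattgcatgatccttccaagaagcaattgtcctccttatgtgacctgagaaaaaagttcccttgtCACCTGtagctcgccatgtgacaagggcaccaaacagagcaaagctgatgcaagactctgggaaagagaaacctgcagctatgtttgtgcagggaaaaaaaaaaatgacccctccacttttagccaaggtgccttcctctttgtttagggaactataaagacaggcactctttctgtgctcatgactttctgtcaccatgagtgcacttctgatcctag

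CACCTG on either strand was in 14 of the 22 promoters of the enzyme list, in 8 of the 15 of the other acinar genes and in 20.2% of all promoters. Of the 19 measured digestive enzymes and cofactors, 18 rose and none fell from 30 min to 1 h, and the list median was 1.47. The same 18 to 0 count was found without each of the 4 arrays in turn. The member that did not pass was Spink1, a trypsin inhibitor, which was at 12.31 and 12.23 (change -0.08, adjusted p = 0.67).

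Cpa1, carboxypeptidase A1, was at 11.78 and 11.93 on the HF30min arrays and at 13.33 and 13.31 on the HF1h arrays, 2.77-fold higher (log2 change 1.47, SE 0.08, adjusted p = 1.4e-07). The pools did not overlap. The fasting mean of 12.75 lay between them, and HF3h was at 13.4. Pnliprp1, a lipase-related protein, rose 3.66-fold from 10.19 and 10.13 to 11.97 and 12.09 (adjusted p = 1.4e-08). Rnase1, the pancreatic ribonuclease, rose 3.56-fold from 11.14 and 11.19 to 13.03 and 12.98 (adjusted p = 5.5e-09). Both had fasting means, 11.23 and 12.2, above HF30min and below HF1h. Cel, the bile salt-activated lipase, rose 3.42-fold, Clps, the cofactor of pancreatic lipase, 3-fold and Pla2g1b, a phospholipase, 2.82-fold. Among proteases, Ctrl, Cpb1, Cela1, Prss2, Ctrb1 and Cela2a rose by 1.6, 1.44, 1.35, 1.33, 1.29 and 1.26 on the log2 scale. Cela3b, already at 13.22 near the top of the scale, rose by 0.7 on this probe set. All 4 of its probe sets passed at an adjusted p alone, with changes of 0.7 to 2.1. The largest rise in the list was that of Prss3, a trypsinogen, at least 6.45-fold from 4.09 and 4.3 to 6.84 and 6.93. The trypsinogens, the Klk1 family and Amy1 have near-identical copies, and their probe sets may not separate them.

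Other acinar genes rose as well, 12 of 20 with 1 lower and a median of 1.18, and 11 or 12 without each array in turn. The 1 that fell was Tff2, described above. Gp2, the main membrane glycoprotein of zymogen granules, was at 8.45 and 8.38 at HF30min and at 10.51 and 10.59 at HF1h (4.39-fold higher, SE 0.08 on the log2 scale, adjusted p = 1.9e-09). Cuzd1, also of zymogen granules, rose 4.42-fold and Serpini2, a pancreatic serpin, 4.46-fold. Pdia2, the pancreatic protein disulfide isomerase, rose 3.84-fold. Cckar, the receptor through which cholecystokinin acts on acinar cells in mice, rose at least 3.36-fold from a mean of 4.03 to 5.78. Ptf1a itself was at 4.38 and then 5.79, at least 2.66-fold higher (adjusted p = 0.0012). Reg2, a regenerating islet-derived lectin of acinar cells, rose 3.2-fold from 7.4 and 7.37 to 9.1 and 9.03. Tmed6, a cargo receptor of the early secretory pathway, had the largest rise of all genes, at least 6.52-fold from 4.38 and 4.68 to 7.27 and 7.2.

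The summed enzyme level was 53400 and 53200 on the HF30min arrays and 129000 and 128000 on the HF1h arrays, a ratio of 2.41. HF30min was the lowest of the 7 pools for it. The fasting arrays held 89000 and 89200, and HF1h lay near HF3h, which was at 139000 on both arrays. Of the 30 pancreatic genes that rose at an adjusted p alone, 28 had their lowest level of all pools at HF30min and 30 were above the fasting pool at HF1h. This order, too, describes genes chosen by the same contrast and was not tested. Gatm (amidinotransferase of creatine synthesis), Slc38a5 (a glutamine transporter) and Amy1, on none of the lists, rose by at least 1.32, 1.34 and 1.25. The part of pancreatic tissue in each pool was not measured apart from these transcripts, and its part in the results was not tested.

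A part of the islet genes fell in the same step. Ins2, which encodes insulin, was at 10.71 and 10.58 at HF30min and at 9.33 and 9.36 at HF1h (log2 change -1.3, SE 0.09, 2.47-fold lower, adjusted p = 2e-06). Iapp, the islet amyloid polypeptide that beta cells release with insulin, went from 8.83 and 9.06 to 7.41 and 7.42 (2.89-fold lower, adjusted p = 3.8e-05). Its 4 probe sets had changes of -1.81 to -0.53. Ttr, transthyretin, which islets share with other tissues, fell 2.09-fold. Of the 10 measured islet genes 4 fell and 1 rose, with a median of -0.21. The 1 that rose was Nkx6-1, a beta cell factor near the background (4.05 and 4.6, adjusted p = 0.0498), and without HF30min replicate 1 or 2 or HF1h replicate 1 its adjusted p was 0.15 to 0.25. The fourth to fall, Ppy, pancreatic polypeptide, had at least -0.53 (adjusted p = 0.014, and 0.078 to 0.13 without HF30min replicate 1 or 2 or HF1h replicate 2). The summed islet level was 2480 at HF30min, the highest of the 7 pools, and 1080 at HF1h. The islet median turned to 0.04 without the _s_at, _x_at and _a_at types of probe set, which can match several transcripts.

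**Figure D3:**
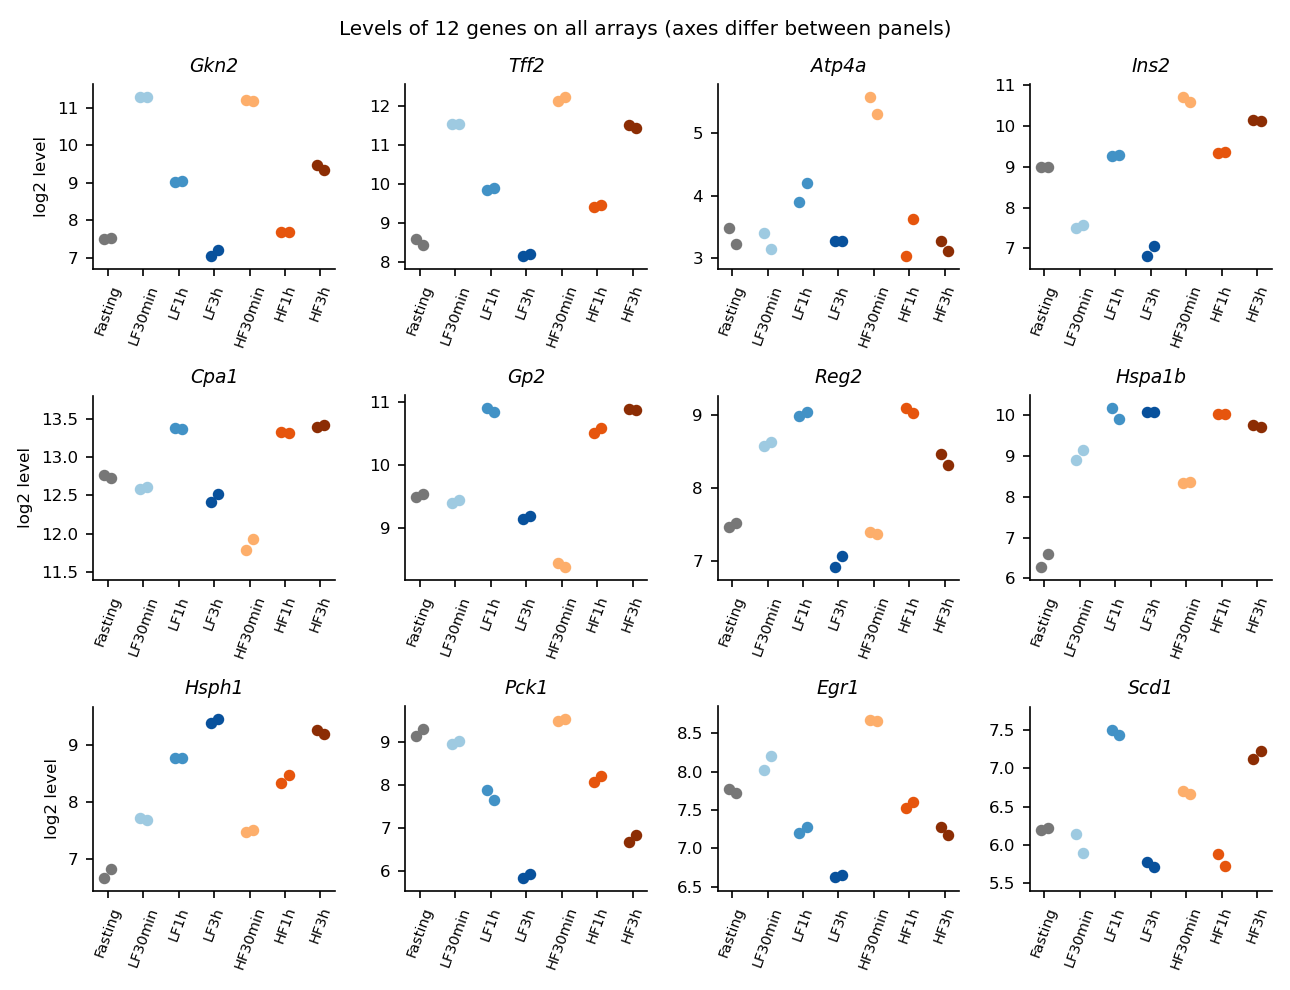
Log2 level (vertical axis, own range in each panel) of 12 genes on the 14 arrays, with 2 points for each of the 7 pools. At HF30min Gkn2, Tff2, Atp4a, Ins2, Pck1 and Egr1 are higher, and Cpa1, Gp2, Reg2, Hspa1b and Hsph1 lower, than at HF1h, and Scd1 falls from 6.69 to 5.81 in the HF meal where it is at 7.47 in LF1h.

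Genes of the mucosa's own cell types showed smaller differences or none that passed. None of 21 enterocyte genes and none of 20 enteroendocrine hormones and granins passed limma's test. An unadjusted p under 0.05 was found for 2 and 8 of them, beside 16.5% of all genes. Of the 20 enteroendocrine genes 12 had a change below 0 and 8 above, with a median of -0.07. Among 16 goblet and Paneth cell genes, Agr2, a disulfide isomerase needed for mucin folding, fell 1.76-fold (9.02 to 8.21, adjusted p = 0.00022). Agr2 is also made by gastric mucous cells and Brunner glands. Reg3g, an antibacterial lectin, had 11.67 and 12.11 (adjusted p = 0.023), which became 0.087 to 0.17 without each array in turn. Muc2, the goblet cell mucin, was at 12.02 and 12.03. Of 14 smooth muscle genes, Myh11 fell by at least 0.63 (adjusted p = 0.0028) and Synm by at least 0.69. The adjusted p of Synm was 0.033, and 0.057 to 0.23 without each array in turn. The other probe sets of Myh11 and Synm had -0.12 and 0.06. The summed smooth muscle level was 1960 at HF30min and 1760 at HF1h.

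Hsph1, Hspa1a and Hspa1b were the heat shock genes that rose between 30 min and 1 h. Inducible chaperones are switched on by the factor HSF1, which binds repeats of GAA in alternating orientation. Of 27 measured heat shock proteins and co-chaperones, 3 rose and none fell, with a median of 0.19, and the 3 held without each array in turn. Hsph1, the HSP110 exchange factor of HSP70, was at 7.48 and 7.52 at HF30min and at 8.34 and 8.47 at HF1h (1.88-fold higher, adjusted p = 4.9e-05). It was at 9.26 and 9.19 at HF3h. Its promoter (RefSeq, build GRCm38.p6) is shown because it holds 3 alternating units, GAA, TTC and GAA or the reverse complement, with any 2 bases between neighbours. They are in capitals.
Hsph1, chr5:149636287-149636586, - strand: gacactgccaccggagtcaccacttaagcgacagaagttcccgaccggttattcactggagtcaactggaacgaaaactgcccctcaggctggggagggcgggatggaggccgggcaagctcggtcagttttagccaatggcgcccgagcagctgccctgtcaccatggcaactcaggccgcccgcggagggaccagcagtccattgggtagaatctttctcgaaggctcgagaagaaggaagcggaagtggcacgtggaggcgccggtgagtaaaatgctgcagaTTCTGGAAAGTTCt

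Such units were in 5 of the 30 promoters of the list and in 0.603% of all promoters, and in neither the Hspa1a nor the Hspa1b window. Hspa1b, an inducible HSP70 gene, was at 8.33 and 8.37 at HF30min and at 10.04 and 10.02 at HF1h (3.22-fold higher, log2 change 1.69, SE 0.12, adjusted p = 2e-06). Its lowest pool was the fasting one, where HF30min was the lowest for 28 of the 30 pancreatic genes that rose. The fasting arrays were at 6.27 and 6.6, so the level was already above fasting at 30 min. Hspa1a, its near-identical neighbour, whose transcripts the probe sets may not separate, went from 5.19 on both arrays to 6.89 and 6.82. Hspa8, the constitutive HSP70, had 12.3 and 12.24, and Dnajb1, an HSP40 partner, 9.16 and 9.47 (adjusted p = 0.82 and 0.1).

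Other stress lists moved little. Of 34 ATF4 targets of the amino acid response, Nupr1, a small stress-induced nuclear protein that acinar cells also express, rose 1.85-fold from 7.13 and 7.09 to 7.89 and 8.1 (adjusted p = 0.00079). Psat1, of serine synthesis, rose by at least 0.78 (adjusted p = 0.0074, and 0.055 to 0.087 without each array in turn). Its other probe set had 0.2. No member fell, and the median was 0.12. Of 33 endoplasmic reticulum chaperones and unfolded protein response genes, Ero1b had 0.45 (adjusted p = 0.019) and Dnajc10 had -0.6 (adjusted p = 0.014). Ero1b is an oxidase of secretory cells including acinar ones. The other probe sets of Dnajc10 did not pass, with changes of up to -0.15. Without HF30min replicate 1, HF30min replicate 2 or HF1h replicate 2 the adjusted p of Ero1b was 0.11 to 0.17, and without HF30min replicate 1 or 2 or HF1h replicate 1 that of Dnajc10 was 0.074 to 0.14.

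Of 30 genes of the insulin and FOXO list, 5 fell and none rose. Pck1, the cytosolic phosphoenolpyruvate carboxykinase of gluconeogenesis, led them. Its promoter is shown with the cyclic AMP response element TTACGTCA, through which CREB acts on this gene, in capitals (RefSeq, build GRCm38.p6). These letters were in 0.499% of all promoters and in 1 of the 32 of the insulin and FOXO list.
Pck1, chr2:173152823-173153122, + strand: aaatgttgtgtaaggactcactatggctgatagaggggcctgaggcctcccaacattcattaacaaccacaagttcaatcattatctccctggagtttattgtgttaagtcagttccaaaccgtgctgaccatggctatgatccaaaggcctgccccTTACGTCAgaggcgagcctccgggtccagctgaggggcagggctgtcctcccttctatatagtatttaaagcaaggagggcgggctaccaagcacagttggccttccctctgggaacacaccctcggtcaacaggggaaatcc

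Pck1 was at 9.5 and 9.54 on the HF30min arrays and at 8.08 and 8.22 on the HF1h arrays (2.59-fold lower, log2 change -1.37, SE 0.1, adjusted p = 3.3e-06). HF30min was close to the fasting arrays, at 9.15 and 9.3, and HF3h was lower again at 6.69 and 6.84. The other 2 of its 3 probe sets bounded the change at -1.47 and 0.08. Pdk4, a kinase that inhibits pyruvate dehydrogenase, fell 1.69-fold from 9.76 and 9.8 to 9.02 on both arrays (adjusted p = 0.00016). Cited2, a transcriptional coregulator, fell 1.82-fold from 9.01 and 9.12 to 8.3 and 8.1 (adjusted p = 3e-04). Its other probe set had -0.22. Pdk4 and Cited2 were above or near their fasting means, 9.66 and 9.2, at HF30min. Bcl2l11, the proapoptotic BIM, fell by 0.55 (adjusted p = 0.0037, and 0.057 without HF30min replicate 2). Fbxo32, a ubiquitin ligase, had at least -0.6 (adjusted p = 0.015, and 0.071 to 0.12 without each array in turn). Its other probe sets had changes of up to 0.04. The list median was -0.18, and 27 of the 30 genes had a change below 0, as had 8155 of all 18193 genes. G6pc, glucose-6-phosphatase of gluconeogenesis, was at 11.33 and then 11.42, a change of 0.09 that did not pass (adjusted p = 0.59). Foxo1 had -0.18 (adjusted p = 0.43) and Irs2, the insulin receptor substrate that FOXO1 raises, -0.02 (adjusted p = 0.96).

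Few glucocorticoid-responsive and clock genes passed. Zbtb16 and Fkbp5, induced by glucocorticoids, were the 2 of 18 such genes that fell, with changes of -0.96 and -0.5 (adjusted p = 0.0068 and 0.016) and a list median of -0.17. The adjusted p of Zbtb16 was 0.0501 to 0.09 without HF30min replicate 2, HF1h replicate 1 or HF1h replicate 2. The other 2 probe sets of Zbtb16 had changes of up to -0.04, and those of Fkbp5 of up to 0.06. The adjusted p of Fkbp5 was 0.087 to 0.12 without HF30min replicate 1 or 2 or HF1h replicate 1. Of 19 clock genes, Bhlhe40 alone passed. It rose by 0.41 (adjusted p = 0.029, and 0.091 to 0.2 without each array in turn), and Per1 had -0.24 (adjusted p = 0.47).

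Among 47 immediate early genes, whose transcripts appear within minutes of a stimulus, Egr1 fell most. This zinc finger factor was at 8.67 and 8.66 at HF30min and at 7.53 and 7.6 at HF1h (2.14-fold lower, log2 change -1.09, SE 0.09, adjusted p = 7.1e-06). HF30min was its highest pool of the 7, and HF1h lay just under the fasting arrays at 7.78 and 7.72. Fos, at 11.77 and 11.62, Jun, at 9.52 and 9.58, and Nr4a1, at 7.22 and 7.21, did not pass. Dusp6, a phosphatase of ERK, rose by 0.51 (adjusted p = 0.0078, and 0.051 to 0.078 without each array in turn). Egr2, near background, had at least -0.46 (adjusted p = 0.044, and 0.13 to 0.22 without each array in turn). The other probe set of Egr2 had 0.04. The list median was -0.06.

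Of the 37 lists, 15 held no gene that passed limma's test. Beside those of enterocytes, enteroendocrine cells and cholesterol synthesis, they were adipocytes, B and plasma cells, T cells, erythrocytes, glycolysis, cell cycle, ribosome biogenesis, proteasome, inflammation, interferon, bile acid sensing and amino acid transport, with medians of -0.01 to 0.18 and 1 to 7 genes at an unadjusted p under 0.05. Mrc1, a mannose receptor of macrophages, had at least -0.53 (adjusted p = 0.016, and 0.098 to 0.15 without HF30min replicate 1 or 2 or HF1h replicate 2). Rsrp1, an arginine- and serine-rich protein, had -0.56 (adjusted p = 0.025, and 0.066 to 0.21 without the same arrays). Its other probe sets had changes of up to -0.08. Hmox1, heme oxygenase, had at least 0.48 (adjusted p = 0.037, and 0.095 to 0.21 without each array in turn).

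The genes of fat handling gave few calls at this step of a meal rich in fat. Of 38 PPARα targets and fatty acid oxidation genes, Pdk4, Cd36 and Vnn1 fell and none rose, with a median of -0.1. Cd36, a fatty acid translocase, was at 8.19 and 8.24 and then at 7.72 and 7.47 (adjusted p = 0.017, and 0.093 to 0.17 without HF30min replicate 1 or 2 or HF1h replicate 2). Vnn1, a pantetheinase, had -0.46 (adjusted p = 0.041, and 0.068 to 0.24 without each array in turn). Angptl4, a secreted inhibitor of lipoprotein lipase, had -0.35 (adjusted p = 0.051) and Ppara -0.18 (adjusted p = 0.35). Of 28 genes of triglyceride and chylomicron assembly Cd36 alone passed, and the median was 0.03. Scd1, the stearoyl-CoA desaturase that makes oleate, was the 1 of 16 fatty acid synthesis genes to pass, at 6.7 and 6.67 and then 5.88 and 5.73 (at least 1.84-fold lower, adjusted p = 0.00021), and its other probe set had -0.02. None of 20 cholesterol synthesis genes passed limma's test (5 at an unadjusted p under 0.05). Their median was 0.13, and 18 of the 20 lay above 0, as did 10038 of all 18193 genes. Fabp5, the epidermal type fatty acid-binding protein, is made little by enterocytes and fell 2.93-fold from 7.78 and 7.93 to 6.39 and 6.21 (adjusted p = 1.8e-05). HF30min was its highest pool, as for 22 of the 25 genes that fell at the 2-fold minimum, all chosen by this same contrast. The part of gastric tissue in the fall of Fabp5 was not tested.

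Bco1, the enzyme that cleaves beta-carotene to retinal, was at 8.16 and 8.04 and then at 9.03 and 9.05 (1.92-fold higher, adjusted p = 1.9e-05). Slc2a5, the fructose carrier GLUT5, had 9.65 and 10.07 (adjusted p = 0.022, and 0.052 to 0.18 without each array in turn), and it was at 11.4 at HF3h. Pklr, pyruvate kinase, had 0.38 (adjusted p = 0.044, and 0.087 to 0.24 without each array in turn), and 1 of its 3 probe sets passed. Slc11a2, the iron carrier DMT1, rose 1.4-fold (adjusted p = 0.01, and 0.087 to 0.1 without HF30min replicate 1 or 2 or HF1h replicate 2), and 1 of its 4 probe sets passed. Rab30, a small GTPase of the Golgi, rose 1.8-fold from 8.05 and 8 to 8.81 and 8.95 and was at 11.03 at HF3h. Its other probe set had 0.01. Outside the lists, Gpx2, a glutathione peroxidase of the gut epithelium, rose 1.69-fold (adjusted p = 0.0021) and Irak2, a kinase of interleukin and Toll-like receptor signaling, 1.63-fold (adjusted p = 0.0017). Vim, a mesenchymal intermediate filament, fell 1.58-fold (adjusted p = 0.00056). The changes of its 3 probe sets were -0.75 to -0.32, and 1 passed. Bco1, Rab30, Gpx2, Irak2 and Vim were chosen after their values were seen, as were Gatm, Slc38a5, Amy1, Ehf, Cldn18, Golm2, F5, Fkbp9, Igkv6-20, Nucb2 and Psca. So were other genes described here, among them Ctrl, Clps, Pla2g1b, Cpb1, Cela1, Cela3b, Spink1, Ppara, Angptl4, Foxo1, Irs2, Fos, Jun, Nr4a1, Hspa8, Dnajb1 and Per1.

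Other genes on none of the lists also moved, and most of those that fell had their highest level at HF30min. As above, this order describes genes chosen by the same contrast. The gene 2310057J18Rik was at 8.82 and 8.5 at HF30min and at 3.9 and 4.02 at HF1h, at least 25.9-fold lower (adjusted p = 4.6e-11), and it returned to 7.29 at HF3h. It was also high at LF30min, with 7.9 and 7.98, and at 3.64 to 4.28 in the fasting, LF1h and LF3h pools. Wfdc18, a small secreted protein with a whey acidic protein fold, fell by at least 1.83 on the log2 scale. Sptssb, a small subunit of serine palmitoyltransferase, fell by at least 1.69, A2ml1, a protease inhibitor, by at least 1.59, and Ehf, an epithelial ETS factor, by at least 1.28. Cldn18, a tight junction protein of stomach and lung, fell by at least 0.93 (adjusted p = 0.0015). The other probe sets of Ehf, Cldn18, Golm2 and Fkbp9 did not pass, with changes of up to 0.11, -0.26, -0.16 and -0.34. Golm2 and F5, near background, had at least -1.1 and -1.02, and their adjusted p of 0.015 and 0.016 became 0.07 to 0.14 without HF30min replicate 2, HF1h replicate 1 or HF1h replicate 2. Fkbp9 had at least -1.07 (adjusted p = 0.0045, and 0.063 and 0.055 without HF30min replicate 1 or HF1h replicate 1). Igkv6-20, an immunoglobulin variable gene, had at least 1.12 (adjusted p = 0.016, and 0.075 to 0.14 without HF30min replicate 1 or 2 or HF1h replicate 1), and Nucb2, the precursor of nesfatin, at least 1.16 (adjusted p = 0.0023).

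Whether the step was particular to the HF meal was asked against the same step of the LF meal, which shares no array with it. From LF30min to LF1h, 56 probe sets rose and 16 fell (0.124% and 0.0355%). Of the 61 probe sets that rose in the HF meal, 60 had a change of the same sign in the LF meal and 40 passed there too by the same thresholds, and of the 40 that fell, 31 had the same sign and 12 passed. Over all probe sets 57.3% had the same sign. The difference between the 2 steps was tested as an interaction. Only 5 probe sets were higher and 22 lower in the HF step than in the LF step at an adjusted p under 0.05 and a 2-fold difference (0.0111% and 0.0488%), which stood for 1 and 11 genes (0.00550% and 0.0605% of 18193). At an adjusted p alone the gene background of the difference was 0.0605% up and 0.115% down.

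**Figure D4:**
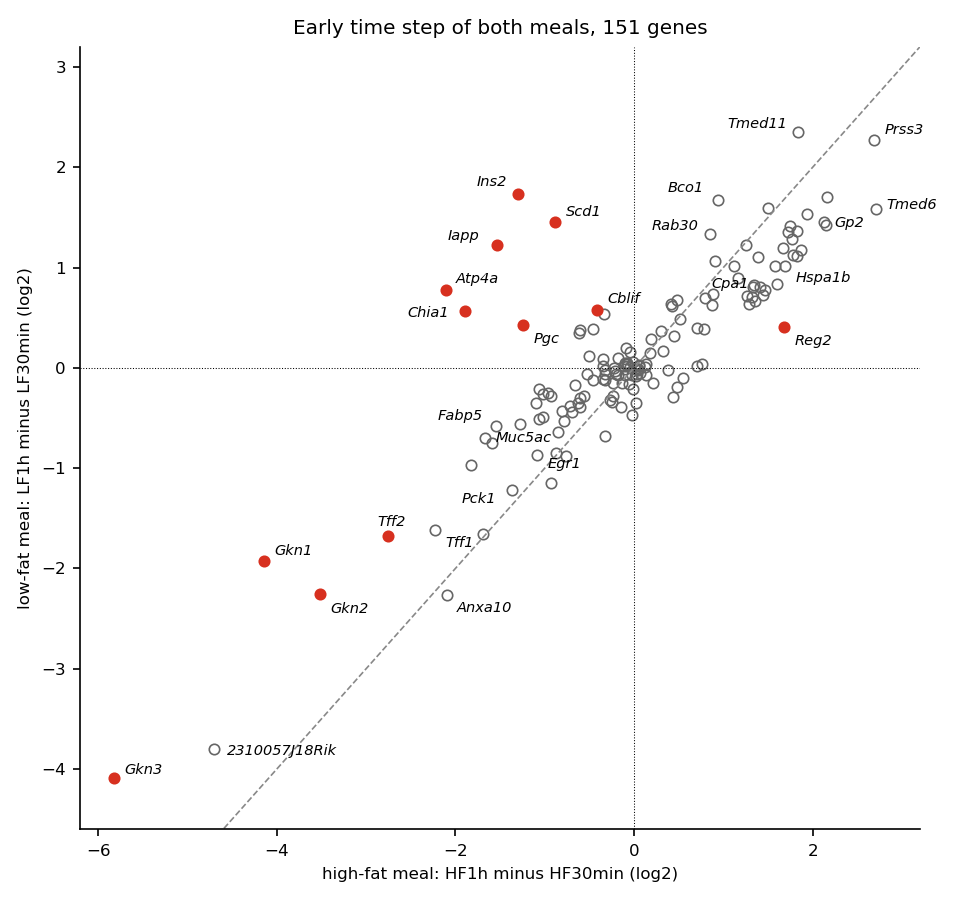
Change from 30 min to 1 h in the HF meal (horizontal axis) and in the LF meal (vertical axis), both as differences of log2 levels, for 151 genes named by rule or picked after their values were seen. Red points are the 12 genes whose 2 changes differed by at least 2-fold at an adjusted p under 0.05, and the dashed line marks equal change. Ins2, Iapp, Scd1, Atp4a, Chia1, Pgc and Cblif lie in the upper left part, below 0 in the HF meal and above 0 in the LF meal.

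Of the 10 islet genes and the 12 parietal and chief cell genes, 3 and 4 differed between the steps, all toward lower in the HF step. Ins2, with -1.3 in the HF step, rose by 1.73 in the LF step, from 7.5 and 7.57 to 9.26 and 9.28, and the 2 steps differed by -3.04 (SE 0.13, adjusted p = 6.6e-08). Its means in the HF and LF meals were 10.65 and 7.53 at 30 min and 9.34 and 9.27 at 1 h. Iapp differed by -2.76 (adjusted p = 1.7e-05). Ppy, the other islet gene, differed by at least -0.94 (adjusted p = 0.012). Its call was lost without 5 of the 8 arrays in turn (adjusted p up to 0.091). Atp4a and Chia1 had LF steps of 0.78 and 0.57 that did not pass by themselves, and the steps differed by at least -2.89 and -2.46 (adjusted p = 0.00011 for both). Pgc, with an LF step that did not pass either, differed by at least -1.67 (adjusted p = 0.0011). Ttr fell in both meals, by 1.06 and 0.51 on the log2 scale, and the difference did not pass (adjusted p = 0.17).

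The gastrokines fell in both meals and more in the HF meal. Gkn1 fell by 1.93 in the LF step, and the steps differed by at least -2.23 (adjusted p = 1e-05). Gkn2 differed by -1.26 and Tff2 by -1.08 (adjusted p = 0.00025 and 0.0011). Gkn3 differed by at least -1.73 (adjusted p = 0.0088), and without LF1h replicate 2, HF30min replicate 1 or 2 or HF1h replicate 1 the call was lost (adjusted p up to 0.07). Tff1 had -2.23 and -1.62, and the difference of -0.61 did not pass (adjusted p = 0.12). Of the 25 measured genes of the 2 gastric lists, 9 differed, all toward lower in the HF step. Besides those named they were Muc5ac, with at least -0.97 (adjusted p = 0.0075, and 0.065 without HF30min replicate 1), and Cblif, gastric intrinsic factor, with at least -1 (adjusted p = 0.039, and 0.061 to 0.22 without each of the 8 arrays in turn).

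Pancreatic enzymes rose in both meals, with 18 of 19 in each and list medians of 1.47 and 1.02, where 0.511% of all genes rose in the LF step at an adjusted p alone. In the HF meal 6 of them rose more, by less than 2-fold, and each of these calls was lost without most of the 8 arrays in turn. Cpa1, for example, had 1.47 and 0.78, a difference of 0.69 (adjusted p = 0.04, and 0.089 to 0.22 without each array in turn). Reg2 was the 1 gene whose HF step exceeded its LF step by 2-fold at an adjusted p under 0.05. It had 1.68 against 0.41, a difference of 1.27 (SE 0.12, adjusted p = 3e-04 from limma). Its LF30min level of 8.6 stood above the 7.39 of HF30min. The difference of Tmed6, at least 1.12, did not pass limma's test (adjusted p = 0.058). The enzyme sums were 84400 at LF30min and 53300 at HF30min, and 144000 at LF1h and 128000 at HF1h.

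Of the genes outside stomach and pancreas, Scd1 differed most between the meals. It rose by 1.45 in the LF step, from 6.14 and 5.9 to 7.5 and 7.43, and fell in the HF step. The difference was at least -2.32 (adjusted p = 1.4e-06). Of the 10 measured adipocyte genes 1 differed, Adipoq, near background, by at least -0.87 (adjusted p = 0.04). Its call was lost without 7 of the 8 arrays in turn. The part of fat tissue in the Scd1 difference was not tested. Bco1 rose in both meals, by 0.94 in the HF and 1.67 in the LF step, and the difference of -0.73 passed (adjusted p = 0.031, and 0.075 to 0.16 without each of the 8 arrays in turn). No difference between the steps passed for the leading heat shock and FOXO genes or for Egr1. Hspa1b had 1.69 and 1.02, Hsph1 0.91 and 1.07, Pck1 -1.37 and -1.22, Pdk4 -0.76 and -0.88, Cited2 -0.87 and -0.85 and Egr1 -1.09 and -0.87 in the HF and LF steps, and the adjusted p of these differences was 0.3 to 0.99. The SE of a difference of steps was 0.156 at the median, and no difference under 1.5-fold was called. Differences of 0.64 for Cel and 0.65 for Ctrb1 did not pass limma's test (adjusted p = 0.058 and 0.071). Differences between the meals several times the SE could thus be missed. A p that misses the threshold does not show that the steps were alike.

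At HF3h, which shares the HF1h arrays as reference, levels are given beside those of HF1h without a test. The enzymes lay near HF1h, as with 13.32 and 13.4 for Cpa1. Among gastric genes, Tff2 had 9.42 and then 11.49, Gkn1 5.92 and then 7.78, and Gkn2 7.69 and then 9.4. Muc5ac, with 4.63 and 4.65, Atp4a, with 3.33 and 3.2, Chia1, with 3.7 and 3.79, and Pgc, with 5.07 and 5.26, stayed near their HF1h levels. Ins2 had 9.34 and then 10.13. Pck1 and Zbtb16 were lower still, at 6.76 and 5.14. Scd1 was higher, at 7.17.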

How the data were processed

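The deposited values were log2 intensities of 45101 probe sets on 14 arrays, which the authors had background-subtracted and normalized by Robust Multiarray Analysis (RMA), the base 2 being taken from that method. No version or genome build was given in the sources used here, and no column of values was left out (0 columns). After 64 controls were set aside, 45037 probe sets were tested with 1 mean per pool in limma 3.58.1 (R 4.3.3; 7 residual and 6.4 prior degrees of freedom, median SE of the step 0.11), with Benjamini-Hochberg adjustment within each comparison. RMA shares its scaling over arrays, so changes are relative: the median change over probe sets was 0.024, and -0.014 after centering on array medians. By the platform annotation, 34945 probe sets belonged to a single gene (18193 genes in all), 932 to several genes and 9160 to none. Genes were described if they were among the 15 largest rises or falls that passed with arrays not overlapping, the 4 largest called changes of each of 37 lists, the 10 largest differences between meals in each direction, or cell type markers, and the text gives a part of these. Other genes were picked after their values were seen. The members and the lists, written from general knowledge, were chosen with earlier results of these data known. Alternatives were other fold rules, a filter at a mean log2 value of 6, fewer arrays, an intensity trend, other scaling, the replicate number as a block and fewer probe sets. The procedure was tested on simulated data. Intensities carry no counting depth, so the number of arrays sets the precision. Promoters were RefSeq sequences of GRCm38.p6. Python 3.11.15 with matplotlib 3.10.9 made the plots.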

Additional observations from a re-analysis of the deposited data

Results flagged for a closer look

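For 12 genes the change from 30 min to 1 h differed between the HF and the LF meal by limma's interaction test at a 2-fold minimum. The differences, HF step minus LF step on the log2 scale, were -3.04 for Ins2, -2.89 for Atp4a, -2.76 for Iapp, -2.46 for Chia1, -2.32 for Scd1, -2.23 for Gkn1, -1.73 for Gkn3, -1.67 for Pgc, -1.26 for Gkn2, -1.08 for Tff2, -1 for Cblif and 1.27 for Reg2. Besides Ins2, Iapp, Scd1 and Reg2, these are genes of the gastric lists. The call of Cblif was lost without each of the 8 arrays in turn (adjusted p = 0.061 to 0.22), and that of Gkn3 without LF1h replicate 2, HF30min replicate 1 or 2 or HF1h replicate 1 (up to 0.07). The summed levels of gastric and islet genes were highest at HF30min of all 7 pools, at 14800 and 2480. The part of gastric, pancreatic and fat tissue in the differences was not tested.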

How the results depend on the processing

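The alternatives covered the counts of probe sets, the medians of 7 of the 37 lists and, without the probe set filters, 101 described genes. More probe sets rose than fell at the 2-fold minimum, and fewer with a fold minimum of 1.5 or none. The counts of 61 higher and 40 lower probe sets were 195 and 272 with no fold minimum, 107 and 143 with a fold minimum of 1.5, 36 and 21 without the _s_at, _x_at and _a_at types of probe set, which can match several transcripts (fewer tested), and 24 and 20 without the genes of the gastric, pancreatic and islet lists. With a mean log2 value of at least 6, 20 were lower. Leaving out 1 array gave 64 to 65 higher and 39 to 43 lower. For the difference between the steps, 5 higher and 22 lower became 22 and 38 with no fold minimum or one of 1.5, 3 and 12 without those probe set types, and 3 and 7 without those lists. At a mean of at least 6, 14 were lower, and leaving out 1 array gave 5 to 6 higher and 15 to 24 lower (15 without HF30min replicate 1). List medians moved with the probe sets kept. The gastric surface and Brunner gland median of -1.67 was -3.14 at a mean of at least 6, -1.7 median-centered, -1.68 after quantile normalization, -0.69 without those probe set types, -1.09 with all probe sets of a gene averaged, and -1.77 to -1.57 without 1 array. The parietal and chief cell median of -0.31 was -0.23 at a mean of at least 6, -0.35 median-centered, -0.07 without those types, -0.17 with averaged probe sets and -0.34 to -0.25 without 1 array. The enzyme median of 1.47 was 1.43 median-centered, 1.45 after quantile normalization, 1.54 without those probe set types, 1.42 with averaged probe sets and 1.44 to 1.48 without 1 array. That of other acinar genes, 1.18, was 0.95 and 0.93 under the latter pair of settings, and 1.04 to 1.21 without 1 array. The islet median of -0.21 was -1.18 at a mean of at least 6 and -0.24 median-centered, turned to 0.04 without those probe set types, and was -0.28 to -0.15 without 1 array. The insulin and FOXO median of -0.18 was -0.06 with averaged probe sets and -0.21 to -0.17 without 1 array, and the heat shock median of 0.19 was 0.1 to 0.21. Where a value moved, the cause was not tested beyond the smaller number of probe sets.

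Of 101 described genes, none reversed and 29 lost their call under at least 1 setting. Arrays with the same replicate number did not pair (21 pool pairs, r -0.19 to 0.15, 2 over 0.1). With the replicate number as a block, 61 probe sets were higher and 40 lower, 5 and 20 for the difference between the steps, and 5 described genes lost their call. Precision rests on 2 arrays per pool, and levels near background hide part of a change. No error between mice was measured.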
